A study of Mus musculus with 9 samples.

Results

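SR proteins and heterogeneous nuclear ribonucleoproteins (hnRNPs) are the best known RNA-binding regulators of alternative splicing. The 31 genes described here are the rows of the expression table whose symbol starts with Srsf and a digit, or with Hnrnp, out of 48709 symbols. They comprise 11 SR genes (Srsf1 to Srsf7 and Srsf9 to Srsf12) and 20 hnRNP genes. The pattern matched 32 rows, and 1 row named as a pseudogene was left out.

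SR proteins carry an RNA recognition domain and a tail rich in arginine and serine, and they bind enhancer sequences in exons and help the U1 and U2 snRNPs find splice sites. Kinases of the SRPK and CLK families phosphorylate that tail, which sets where the proteins sit in the nucleus and when they act. hnRNPs coat newly made transcripts, often keep exons out, and also act in export, stability and translation of mRNA. In T cells, hnRNP L and its relative hnRNP LL are known for silencing the variable exons of Ptprc, which encodes the phosphatase CD45, and activated T cells change the splicing of many transcripts.

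The series profiled mouse CD8+ T cells by RNA sequencing to ask how citraconate, an isomer of the metabolite itaconate, acts on T cells with or without a peptide of ovalbumin (OVA). There were 3 groups of 3 libraries: CTRL cells without the peptide, OVA cells with the peptide, and OVA/Citra cells given the peptide and citraconate. No group given citraconate without peptide was analysed here, so the action of citraconate on unstimulated cells cannot be read. No source used here gives the mouse strain, sex, age, dose or time, and the labels call 8 of the 9 libraries PAS-T cells without explaining the term (OVA/Citra replicate 1 is described as T cells stimulated with OVA). The labels do not say whether the libraries of a group came from separate animals or cultures, so the p-values below measure the spread between these libraries, which may be technical.

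Values are TPM, a level scaled by transcript length and then so that each library adds up to 1000000, so that levels can be compared between genes. The libraries held between 14754470 and 17384330 reads, worked back from the table. All 7 T cell markers were present in all 9 libraries, with a summed level of 7262 to 7641 TPM in CTRL, 3869 to 4741 TPM in OVA and 6364 to 6568 TPM in OVA/Citra. Cd3e, Cd3d, Cd3g, Cd8b1 and Cd2 were highest in CTRL and lowest in OVA (Cd3e at 1405, 513 and 1281 TPM in CTRL, OVA and OVA/Citra), Cd8a was highest in OVA/Citra (217, 142 and 325 TPM), and Thy1 was at 2662, 2736 and 2640 TPM. The sum of 6 natural killer markers, some of which activated CD8+ T cells also express, was 5.52 to 6.95 TPM in CTRL, 283 to 417 TPM in OVA and 112 to 156 TPM in OVA/Citra, with Ncr1 at 0 in the 3 CTRL libraries. The sum of 5 B cell markers was 13.6 to 15.3 TPM in CTRL, 0.440 to 1.17 TPM in OVA and 0 to 0.596 TPM in OVA/Citra. Myeloid and dendritic markers (6) summed to 0.200 to 1.07, 6.36 to 9.82 and 3.18 to 4.28 TPM in the same order. Cd14 made up most of this sum in the stimulated groups, with means of 0.361, 7.87 and 3.57 TPM, while Lyz2 was at 0 in OVA. Stromal and epithelial markers (5, mostly Pecam1) summed to 41.5 to 44.4, 264 to 387 and 64.4 to 84.3 TPM. CD4 and regulatory T markers (3, mostly Zbtb7b) summed to 30.8 to 31.2, 18.1 to 20.8 and 16.6 to 17.9 TPM. Erythroid and platelet markers (5) summed to 6.72 to 9.22, 3.48 to 5.28 and 10.6 to 13.1 TPM. The 10 granzyme genes took 0.995% of all transcripts in CTRL, 8.53% in OVA and 3.80% in OVA/Citra, and the values of all genes in a library add up to a fixed total. For some results below, values with granzyme genes left out or under another scaling are given. These scalings do not address the mix of cells, and the part of the marker differences in the results was not tested. Beyond those values, the part of the granzymes' share was not tested either. Because whole cultures were read, fewer cells of a kind and less RNA per cell cannot be told apart.

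The hnRNP genes were the more abundant of the 2 families. Summed per library, the 20 hnRNP genes stood at 7719 ± 128 TPM in CTRL, 6340 ± 242 TPM in OVA and 6992 ± 316 TPM in OVA/Citra (SD, n = 3 in each). The 11 SR genes summed to 1468 ± 35.2 TPM, 1262 ± 42.2 TPM and 1321 ± 53.0 TPM in the same order (SD, n = 3 in each). Both sums were highest in CTRL and lowest in OVA, and no OVA library reached the CTRL libraries. The SR sums of OVA (1236 to 1310 TPM) and OVA/Citra (1269 to 1375 TPM) overlapped, and those of the hnRNP genes (6170 to 6617 TPM and 6640 to 7249 TPM) did not. These sums were not tested.

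Hnrnpa1, which encodes an abundant shuttling protein that represses splice sites, had the highest mean level of all members. It read 2125, 1969 and 2159 TPM in CTRL, 1454, 1339 and 1486 TPM in OVA, and 1726, 1619 and 1835 TPM in OVA/Citra. The 3 groups did not overlap, and Hnrnpa1 alone made 27% of the hnRNP sum in CTRL, 22.5% in OVA and 24.7% in OVA/Citra. Srsf5 was the most abundant SR gene, at 379, 369 and 381 TPM in CTRL, 273, 284 and 284 TPM in OVA, and 319, 330 and 330 TPM in OVA/Citra. Here too the groups kept apart, with OVA lowest and OVA/Citra between. Srsf2, whose product (SC35) marks nuclear speckles, came next among SR genes, at 264, 264 and 259 TPM in CTRL, 233, 220 and 246 TPM in OVA, and 225, 209 and 227 TPM in OVA/Citra. Its OVA and OVA/Citra libraries overlapped, both below CTRL. At the other end, Srsf12 was read at 0.0496 to 0.696 TPM, from 1 to 13 reads a library, and was left untested.

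**Figure D1:**
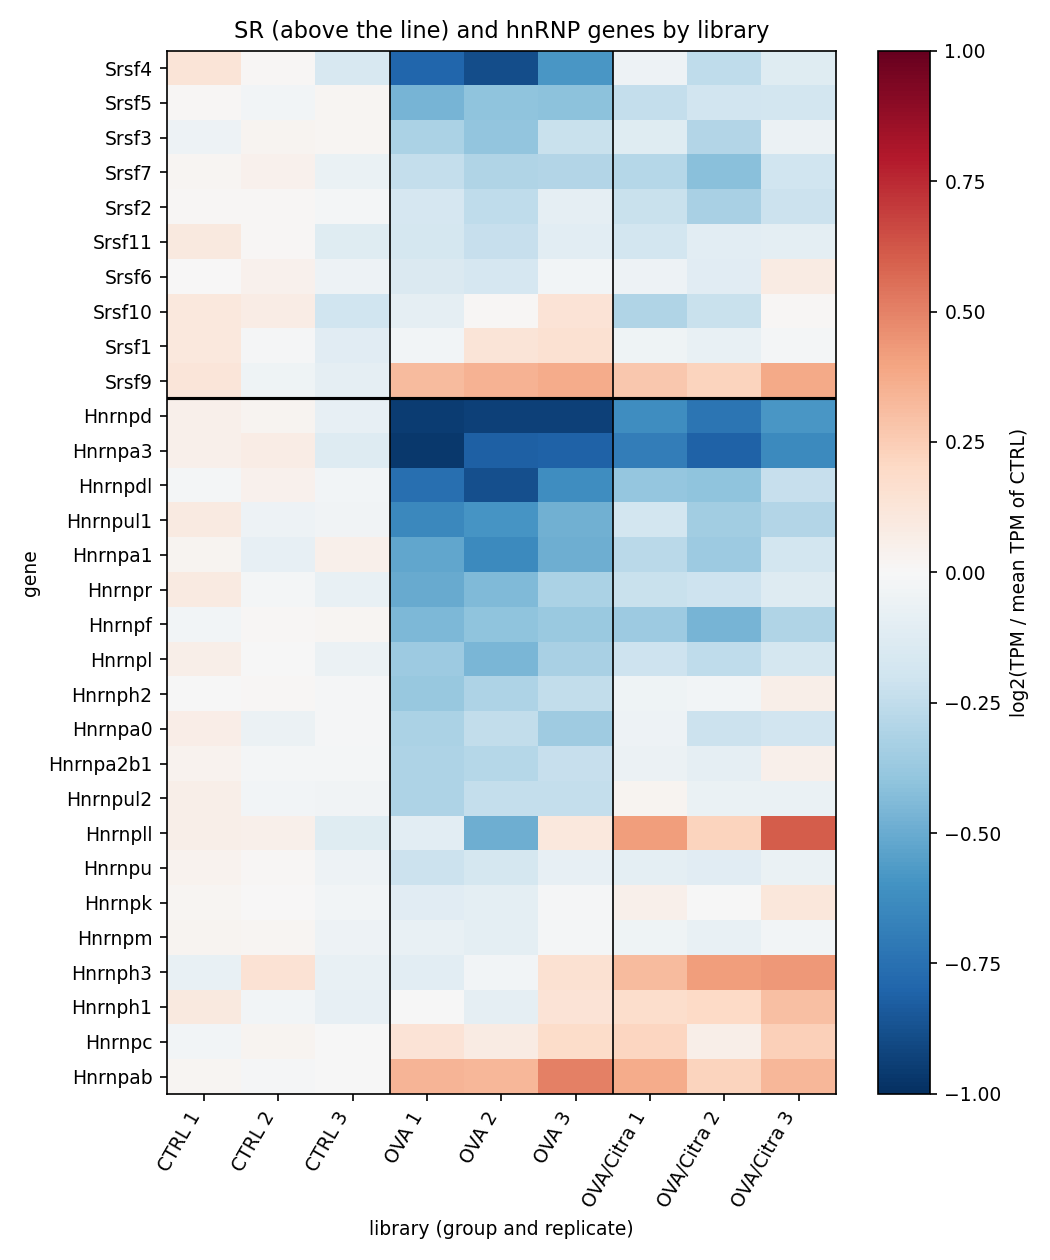
Level of each of the 30 tested genes (rows, SR above the line, without Srsf12) in each of the 9 libraries (columns). Values are log2 of TPM over the CTRL mean, with red for higher and blue for lower. The OVA columns are the bluest, with Hnrnpd and Hnrnpa3 lowest, and the OVA/Citra columns lie closer to CTRL for Srsf4 and Hnrnpdl. Hnrnpab and Srsf9 are red in both stimulated groups.

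The peptide comparison, OVA against CTRL, showed more members lower than higher. Among the 30 members tested, 19 fell and 3 rose at an adjusted p under 0.05 (limma on log2(TPM + 1), Benjamini-Hochberg over 11971 genes), and 8 passed in neither direction. Of all tested genes 39.8% were called lower and 32.1% higher, and 71.9% either way, against 63.3% lower and 10% higher of the members. The median change of the members was -0.27 on the log2 scale, and that of all tested genes was -0.08. SR genes counted 6 lower and 1 higher of 10, with a median of -0.17, and hnRNP genes counted 13 lower and 2 higher of 20, with a median of -0.29. When each library was instead scaled by its median ratio to a reference library, 16 members were called lower and 4 higher, beside 35.8% and 36.8% of all genes (72.6% either way). The libraries of the 2 groups did not overlap for 6 of 10 SR and 15 of 20 hnRNP genes, beside 75.0% of all tested genes. The calls Srsf2, Srsf11 and Hnrnpu, all lower, were the ones of the 19 that some other scaling lost.

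**Figure D2:**
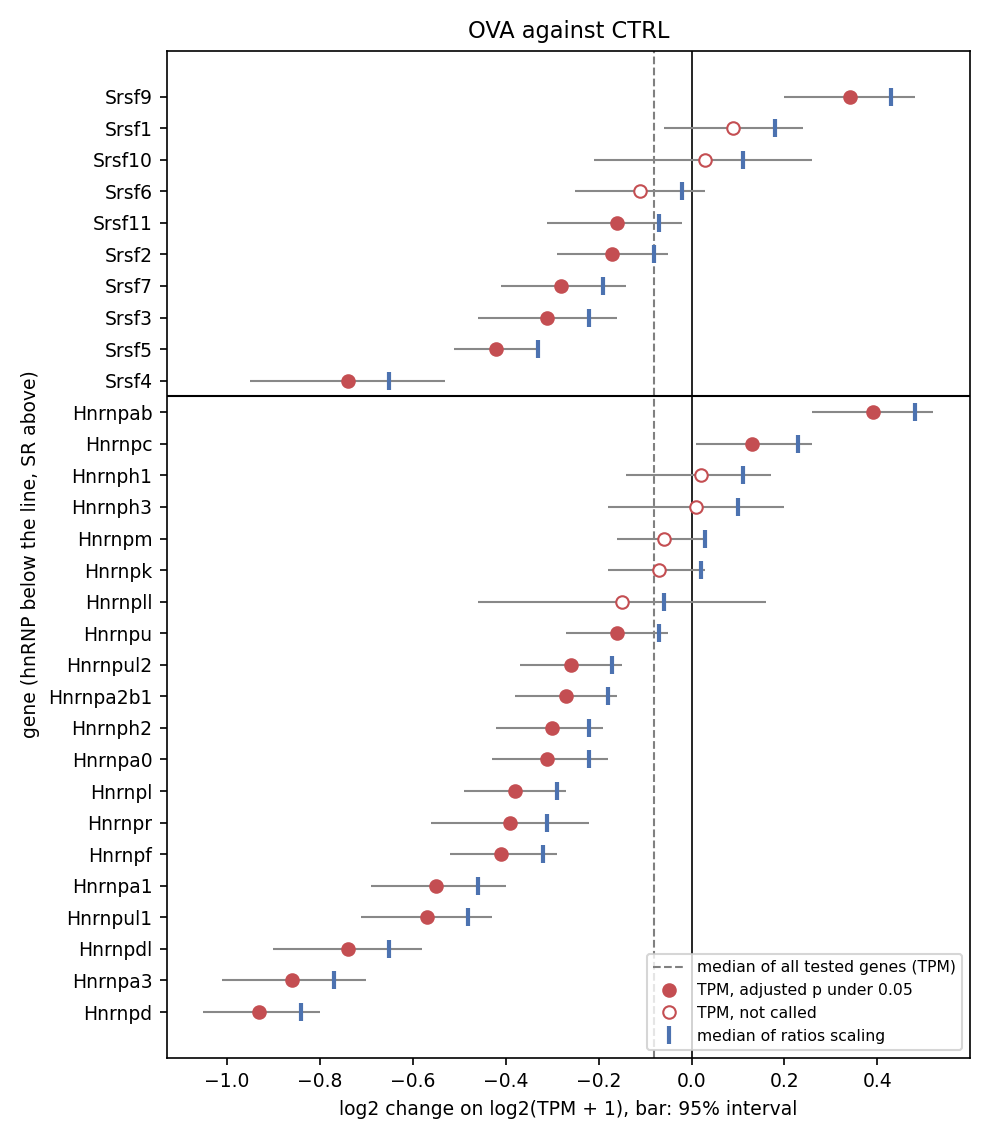
Log2 change of each tested gene in OVA against CTRL (points) with its 95% interval (bars), filled where the adjusted p is under 0.05, and the value under median of ratios scaling (blue ticks). The dashed line marks the median of all tested genes, -0.08. Most points lie left of it, Hnrnpd farthest at -0.93, and Hnrnpab, Srsf9 and Hnrnpc lie right of 0.

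The largest fall was that of Hnrnpd, which encodes AUF1, a protein that binds AU-rich elements and regulates the decay of many cytokine and cell cycle mRNAs. Hnrnpd read 137, 135 and 125 TPM in CTRL, 68.7, 69.3 and 69.5 TPM in OVA, and 86.2, 79.8 and 88.4 TPM in OVA/Citra. The OVA libraries lay within 1 TPM of each other and far below CTRL, and the OVA/Citra libraries lay between with no overlap. The change in OVA against CTRL was -0.93 ± 0.06 (SE, adjusted p = 2.85e-07), a fold of 0.522. Its relative Hnrnpdl, which binds related sequences, read 141, 146 and 140 TPM in CTRL, 84.5, 77.6 and 92.7 TPM in OVA, and 109, 108 and 121 TPM in OVA/Citra. The order of groups was the same as for Hnrnpd, and Hnrnpdl fell by 0.74 ± 0.07 (SE, adjusted p = 6.44e-06).

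Srsf4 encodes SRp75, the SR protein with the longest of the arginine-serine tails, and had the largest fall among SR genes. Its levels were 84.9, 78.2 and 69.6 TPM in CTRL, 44.7, 41.9 and 51.8 TPM in OVA, and 74.7, 65.0 and 71.1 TPM in OVA/Citra. Every OVA library was below every CTRL library, while CTRL and OVA/Citra overlapped. Srsf4 fell by 0.74 ± 0.09 in OVA against CTRL (SE, adjusted p = 5.34e-05). Hnrnpa3, a relative of Hnrnpa1, read 433, 440 and 383 TPM in CTRL, 215, 238 and 239 TPM in OVA, and 259, 239 and 269 TPM in OVA/Citra. Hnrnpa3 was lower in all 6 stimulated libraries than in any CTRL library, by 0.86 ± 0.07 in OVA (SE, adjusted p = 2.38e-06). Hnrnpul1, which binds RNA and also serves at DNA breaks, read 499, 453 and 458 TPM in CTRL, 301, 312 and 337 TPM in OVA, and 413, 370 and 384 TPM in OVA/Citra. These groups did not overlap, and Hnrnpul1 fell by 0.57 ± 0.06 in OVA (SE, adjusted p = 1.69e-05).

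The 3 genes that rose were Hnrnpab, Srsf9 and Hnrnpc. Hnrnpab, which encodes CBF-A, an AUF1 relative that binds RNA and single-stranded DNA, read 828, 814 and 814 TPM in CTRL, 1037, 1030 and 1159 TPM in OVA, and 1061, 958 and 1028 TPM in OVA/Citra. All stimulated libraries exceeded CTRL, and Hnrnpab rose by 0.39 ± 0.06 in OVA (SE, adjusted p = 1.54e-04). Srsf9, the small SR protein SRp30c and a close relative of SRSF1, read 84.2, 75.4 and 73.0 TPM in CTRL, 96.4, 98.8 and 100 TPM in OVA, and 93.3, 90.4 and 100.6 TPM in OVA/Citra. Its stimulated libraries were likewise all above CTRL, with a rise of 0.34 ± 0.06 in OVA (SE, adjusted p = 6.97e-04). Hnrnpc, whose product binds uridine tracts and competes with U2AF there, read 313, 324 and 317 TPM in CTRL, 350, 336 and 361 TPM in OVA, and 369, 332 and 376 TPM in OVA/Citra. Its rise of 0.13 ± 0.05 (SE, adjusted p = 0.0477) was near the threshold, and leaving out CTRL replicate 1, 2 or 3, OVA replicate 1 or 3, or OVA/Citra replicate 1 ended the call (adjusted p up to 0.137).

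Among the remaining SR genes, Srsf3, the smallest of the family and an export adaptor, fell by 0.31 ± 0.07, and Srsf7, which has a zinc knuckle, fell by 0.28 ± 0.06 (SE, adjusted p = 0.00211 and 0.00187). Srsf5 fell by 0.42 ± 0.04 (SE, adjusted p = 7.14e-06). The falls of Srsf2 (-0.17 ± 0.05, SE, adjusted p = 0.0140) and Srsf11 (-0.16 ± 0.07, SE, adjusted p = 0.0463) were smaller. Srsf2's call was lost without OVA replicate 2, and Srsf11's without CTRL replicate 1 or 2, OVA replicate 1 or 2, or any OVA/Citra replicate. Srsf1, the founding member of the family, changed by 0.09 (95% interval -0.06 to 0.24), Srsf6 by -0.11 (-0.25 to 0.03) and Srsf10, a repressor when dephosphorylated, by 0.03 (-0.21 to 0.26), and none of these passed the test in TPM. Srsf1 was the added call among the 4 higher with median of ratios scaling (0.18, adjusted p = 0.0150), and was also called with granzyme genes left out (0.20, adjusted p = 0.0184).

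Of the other hnRNP genes, Hnrnpa1 fell by 0.55 ± 0.06 (SE, adjusted p = 2.86e-05). Hnrnpf, which binds G tracts, fell by 0.41 ± 0.05, Hnrnpr by 0.39 ± 0.08 and Hnrnpl by 0.38 ± 0.05 (SE), with adjusted p from 4.37e-05 for Hnrnpf to 0.00105 for Hnrnpr. Hnrnpa0, Hnrnph2, Hnrnpa2b1, Hnrnpul2 and Hnrnpu fell by 0.31, 0.30, 0.27, 0.26 and 0.16, the last losing its call without OVA replicate 1. Hnrnph1 (0.02), Hnrnph3 (0.01), Hnrnpk (-0.07), Hnrnpm (-0.06) and Hnrnpll (-0.15, 95% interval -0.46 to 0.16) did not pass the test, and with median of ratios scaling Hnrnpk and Hnrnpm turned to 0.02 and 0.03.

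Promoter sequences are printed for 3 of the 4 genes with the largest falls, those that were higher in OVA/Citra than in OVA (Srsf4, Hnrnpd, Hnrnpdl), and for Hnrnpab, which moved the other way. RefSeq's table gave a window from 250 bases before to 50 after the start for 29 of the 31 members, and Hnrnpll and Hnrnpul2 had no window. The 29 members had 41 windows in all, and where a gene had several, the one with the lowest coordinate is printed. The sequences are from build GRCm38.p6, while the submitters' notes name GRCm39. Coordinates are therefore those of the older build: chr4:131873387-131873686 on the plus strand for Srsf4, chr5:99978889-99979188 on the minus strand for Hnrnpd, chr5:100039173-100039472 on the minus strand for Hnrnpdl and chr11:51606832-51607131 on the minus strand for Hnrnpab. Each runs 5′ to 3′ on the gene's strand, and capitals mark the motif matches on either strand.
Srsf4: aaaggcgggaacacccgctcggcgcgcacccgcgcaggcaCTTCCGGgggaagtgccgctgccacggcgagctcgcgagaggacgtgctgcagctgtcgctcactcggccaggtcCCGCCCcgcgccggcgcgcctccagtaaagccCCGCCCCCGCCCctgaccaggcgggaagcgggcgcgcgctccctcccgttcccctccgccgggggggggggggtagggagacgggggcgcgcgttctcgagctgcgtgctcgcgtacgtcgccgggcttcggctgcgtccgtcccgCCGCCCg
Hnrnpd: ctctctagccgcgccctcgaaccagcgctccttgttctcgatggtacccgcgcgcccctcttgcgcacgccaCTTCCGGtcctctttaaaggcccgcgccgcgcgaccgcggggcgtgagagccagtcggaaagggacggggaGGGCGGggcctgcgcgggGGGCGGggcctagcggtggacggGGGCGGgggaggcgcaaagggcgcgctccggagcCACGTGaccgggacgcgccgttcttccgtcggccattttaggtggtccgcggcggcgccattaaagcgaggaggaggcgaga
Hnrnpdl: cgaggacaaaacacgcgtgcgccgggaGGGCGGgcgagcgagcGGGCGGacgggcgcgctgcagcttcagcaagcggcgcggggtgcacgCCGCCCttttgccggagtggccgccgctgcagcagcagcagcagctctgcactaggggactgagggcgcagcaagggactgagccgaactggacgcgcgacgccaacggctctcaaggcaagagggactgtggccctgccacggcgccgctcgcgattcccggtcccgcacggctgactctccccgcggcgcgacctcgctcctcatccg
Hnrnpab: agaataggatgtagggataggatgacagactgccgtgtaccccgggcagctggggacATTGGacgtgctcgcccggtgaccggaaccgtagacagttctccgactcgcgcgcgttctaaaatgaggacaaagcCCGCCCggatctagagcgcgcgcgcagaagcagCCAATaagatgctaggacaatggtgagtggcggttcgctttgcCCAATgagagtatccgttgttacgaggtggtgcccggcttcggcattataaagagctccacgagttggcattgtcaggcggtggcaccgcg

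The windows were searched on both strands for 7 motifs. The GC box was searched as GGGCGG and the CCAAT box by the letters of its name. The E-box was searched as CACGTG, which reads the same on both strands, and the ETS-type element as CCGGAAG. The CRE-type element was searched as TGACGTCA. Each share counts a gene when any of its windows holds the motif, so a gene with more windows has more chances of a match. An NRF1-type and a CGCG element, each a palindrome of 10 letters, were in 3.45% of members with a window each, against 1.07% and 0.525% of all genes. In the printed windows, Srsf4 holds 1 ETS-type match and 4 GC boxes, Hnrnpd 1 ETS-type match, 3 GC boxes and 1 E-box, and Hnrnpdl 3 GC boxes. Hnrnpab holds 3 CCAAT matches and 1 GC box. Over the 29 members with a window, GC boxes were found in 82.8% against 38.2% of 27025 genes, and CCAAT in 58.6% against 41.1%. ETS-type matches were in 20.7% against 9.93% and the E-box in 17.2% against 8.09%. The CRE-type letters were in none of the members' windows and in 2.03% of all genes. With 1 window a gene, the median GC content was 68.3% for members and 52.7% for all genes. All genes here are those with a window, expressed in these libraries or not, with 1 chromosome left out. Shares among the tested genes alone were not computed. A match is a run of letters and no evidence of binding.

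The citraconate comparison, OVA/Citra against OVA, showed members higher, and its counts moved with the scaling. Here 16 of 30 members rose (53.3%) and 0 fell, beside 37.8% higher, 21.2% lower and 59.0% either way of all tested genes. At an unadjusted p under 0.05 limma counted 17 higher and 0 lower, and the share of all genes at that threshold was not computed. Limma with voom weights on the recovered reads called 14 higher and 1 lower (Srsf1), beside 36.7% and 22.8% of all tested genes. The median change was 0.15 for members and 0.12 for all tested genes, so the median gene moved up by nearly as much. For some genes the change less that median is also given. With median of ratios scaling, 7 members were higher and 7 lower, beside 29.1% and 30.0% of all genes (59.1% either way). In TPM the libraries did not overlap for 2 of 10 SR and 14 of 20 hnRNP genes, beside 66.1% of all tested genes. The 7 lower under that scaling were Srsf1, Srsf2, Srsf7, Srsf9, Srsf10, Hnrnpab and Hnrnpm, of which Hnrnpm's direction differs between scalings, at 0.02 in TPM and -0.12 with median ratios. The 7 higher genes, Srsf4, Hnrnpll, Hnrnpdl, Hnrnph3, Hnrnph2, Hnrnpul1 and Hnrnpd, were higher under every scaling and every left-out library. SR genes had 2 called of 10, with a median of 0.01, and hnRNP genes 14 of 20, with a median of 0.21.

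**Figure D3:**
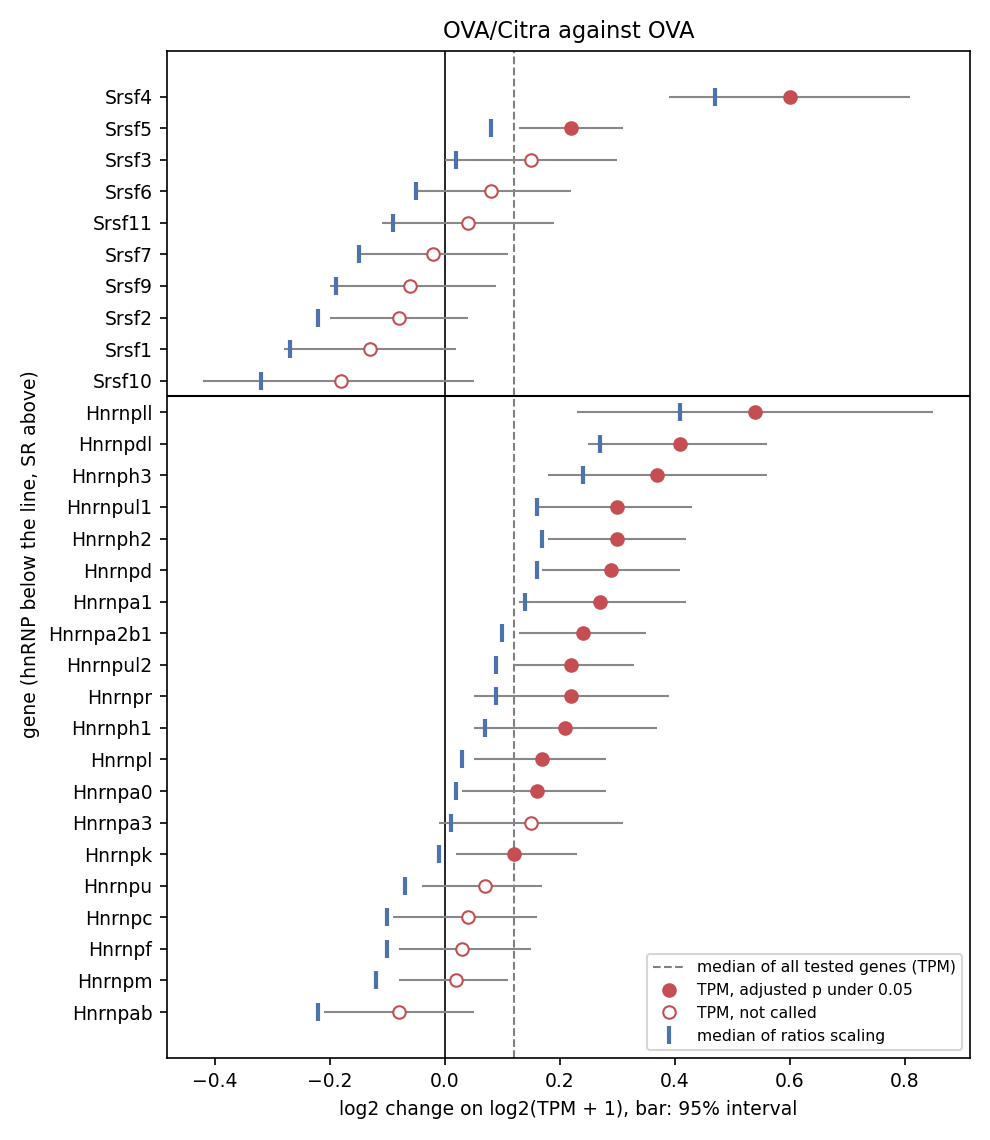
Log2 change of each tested gene in OVA/Citra against OVA (points) with its 95% interval (bars), filled where the adjusted p is under 0.05, and the value under median of ratios scaling (blue ticks). The dashed line marks the median of all tested genes, 0.12. Srsf4 at 0.60 and Hnrnpll at 0.54 lie farthest right, and most SR genes lie left of the line.

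Srsf4 rose most, by 0.60 ± 0.09 (SE, adjusted p = 4.14e-04), or 0.48 above the median of all genes. Its 3 OVA/Citra libraries lay above all OVA libraries and overlapped CTRL, as the values above show. Hnrnpdl rose by 0.41 ± 0.07 (adjusted p = 7.68e-04, 0.28 above the median) and Hnrnpd by 0.29 ± 0.06 (adjusted p = 0.00134, 0.17 above it). Both remained below CTRL in every OVA/Citra library. Hnrnpul1 rose by 0.30 ± 0.06 (SE, adjusted p = 0.00236).

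Hnrnpll, an inducible factor that shifts CD45 toward its shorter isoform, read 12.1, 12.1 and 10.7 TPM in CTRL, 10.8, 8.26 and 12.5 TPM in OVA, and 15.5, 13.6 and 17.7 TPM in OVA/Citra. Every OVA/Citra library exceeded every other library, while OVA and CTRL overlapped. The rise over OVA was 0.54 ± 0.14 (SE, adjusted p = 0.00768), 0.41 above the median of all genes. Hnrnpl, the constitutive partner, read 225, 216 and 208 TPM in CTRL, 169, 157 and 173 TPM in OVA, and 187, 182 and 192 TPM in OVA/Citra. It stood between the other groups in OVA/Citra with no overlap, and rose by 0.17 ± 0.05 over OVA (SE, adjusted p = 0.0166), a call lost with median of ratios scaling (adjusted p = 0.507) and without OVA replicate 2 or OVA/Citra replicate 3. Ptprc, whose exons both proteins silence, read 213, 222 and 207 TPM in CTRL, 216, 221 and 220 TPM in OVA, and 238, 234 and 234 TPM in OVA/Citra. The gene's total was highest in OVA/Citra, and the 0.10 (95% interval 0.01 to 0.19) over OVA did not pass the test (adjusted p = 0.0562). The table sums the isoforms of Ptprc, so the exons in use were not read here.

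Hnrnph1, Hnrnph2 and Hnrnph3 encode relatives of hnRNP F that bind G tracts. Hnrnph3 read 25.3, 29.4 and 25.3 TPM in CTRL, 24.8, 26.3 and 29.7 TPM in OVA, and 33.3, 35.7 and 36.1 TPM in OVA/Citra. OVA and CTRL overlapped, and OVA/Citra lay above both, with a rise of 0.37 ± 0.08 over OVA (SE, adjusted p = 0.00365). Hnrnph2 read 74.2, 75.2 and 73.9 TPM in CTRL, 57.3, 60.1 and 62.9 TPM in OVA, and 72.3, 72.9 and 77.5 TPM in OVA/Citra. It was low in OVA alone, and rose by 0.30 ± 0.05 in OVA/Citra over OVA (SE, adjusted p = 7.38e-04). Hnrnph1 rose by 0.21 ± 0.07 (SE, adjusted p = 0.0266), a call lost with median of ratios scaling and without OVA replicate 1 or 2 or OVA/Citra replicate 3.

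The remaining rises in TPM were those of Hnrnpa1 (0.27), Hnrnpa2b1 (0.24), Hnrnpul2 (0.22), Srsf5 (0.22), Hnrnpr (0.22), Hnrnpa0 (0.16) and Hnrnpk (0.12), all lost with median of ratios scaling, where Hnrnpk's value was -0.01. The calls of Hnrnpa0, Hnrnpr and Hnrnpk were each also lost when 1 of several libraries was left out. Srsf1 changed by -0.13 (95% interval -0.28 to 0.02), Srsf10 by -0.18 (-0.42 to 0.05) and Srsf3 by 0.15 (0.00 to 0.30), and none passed the test.

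The last comparison, OVA/Citra against CTRL, shares its libraries with the 2 others. In it 11 of 30 members fell and 6 rose, beside 26.3% and 33.1% of all tested genes (59.4% either way), and the count of higher genes dropped to 3 without CTRL replicate 3 or without OVA/Citra replicate 3. The genes called higher were Hnrnpll, Hnrnph3, Hnrnpab, Srsf9, Hnrnph1 and Hnrnpc, of which Hnrnpll, Hnrnph1 and Hnrnpc were the ones lost. With median of ratios scaling 15 were lower and 6 higher, beside 29.2% and 30.2% of all genes (again 59.4% either way). In TPM the libraries did not overlap for 5 of 10 SR and 14 of 20 hnRNP genes, beside 67.4% of all tested genes. Hnrnpa3 was lowest relative to CTRL, at -0.71 ± 0.07 (SE, adjusted p = 1.73e-05), and Hnrnpd followed at -0.64 ± 0.06 (SE, adjusted p = 6.57e-06).

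Hnrnpf read 973, 998 and 1005 TPM in CTRL, 725, 750 and 767 TPM in OVA, and 771, 719 and 806 TPM in OVA/Citra. OVA and OVA/Citra overlapped and all their libraries were below CTRL, with a fall of 0.38 ± 0.05 in OVA/Citra against CTRL (SE, adjusted p = 1.38e-04). Srsf7 read 179, 182 and 168 TPM in CTRL, 149, 143 and 144 TPM in OVA, and 145, 132 and 153 TPM in OVA/Citra. Both stimulated groups lay below CTRL here too, and Srsf7 fell by 0.30 ± 0.06 in OVA/Citra (SE, adjusted p = 0.00172). Hnrnph1 read 129, 118 and 113 TPM in CTRL, 120, 113 and 132 TPM in OVA, and 136, 138 and 148 TPM in OVA/Citra. Its 3 OVA/Citra libraries were above all others, 0.23 ± 0.07 over CTRL (SE, adjusted p = 0.0182). Srsf4 differed from CTRL by -0.14 (95% interval -0.35 to 0.07) and Hnrnph2 by -0.00 (-0.12 to 0.11) and neither passed the test, while in OVA both were called lower than CTRL.

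**Figure D4:**
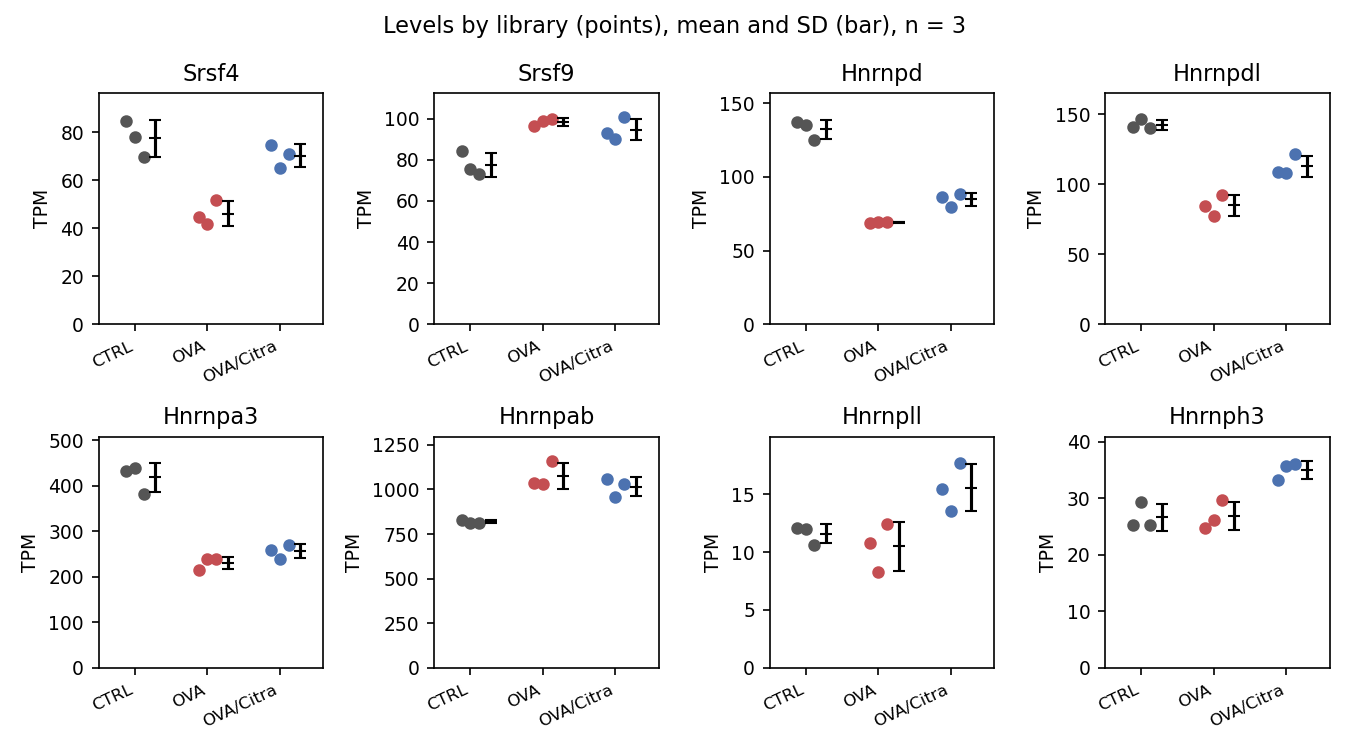
Levels of selected genes in TPM by group: each point is a library, the horizontal bar the mean and the vertical bar the SD (n = 3 in each). Srsf4, Hnrnpd and Hnrnpdl are lowest in OVA, Hnrnpab is higher in both stimulated groups, and Hnrnpll is highest in OVA/Citra.

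Ratios between relatives within a library do not depend on the scaling of that library. For 13 pairs of relatives, chosen with the values known, 39 differences were computed, and with 3 libraries against 3 an exact two-sided permutation test cannot go below p = 0.10, or 0.150 adjusted over the 39. The ratio of Hnrnpd to Hnrnpab was 0.162 ± 0.00709 in CTRL, 0.0645 ± 0.00395 in OVA and 0.0835 ± 0.00238 in OVA/Citra (SD, n = 3), with no overlap. The ratio of Srsf4 to Srsf6 was 0.722 ± 0.0604, 0.464 ± 0.0269 and 0.668 ± 0.0483 in the same order (SD, n = 3), and CTRL and OVA/Citra overlapped. Hnrnpll to Hnrnpl was 0.0536 ± 0.00227, 0.0629 ± 0.00989 and 0.0833 ± 0.00889 (SD, n = 3), highest in the OVA/Citra libraries. Hnrnpf to Hnrnph1 was 8.29 ± 0.676, 6.17 ± 0.425 and 5.45 ± 0.240 (SD, n = 3), and every OVA library was below CTRL and above OVA/Citra. Each non-overlapping difference had the smallest p the test gives. Among the pairs not described, Srsf3 to Srsf7 and Hnrnph3 to Hnrnph1 were higher in every OVA/Citra library than in any OVA library. The rest overlapped in that comparison, such as Hnrnpa1 to Hnrnpa2b1 with a log2 difference of 0.03.

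**Figure D5:**
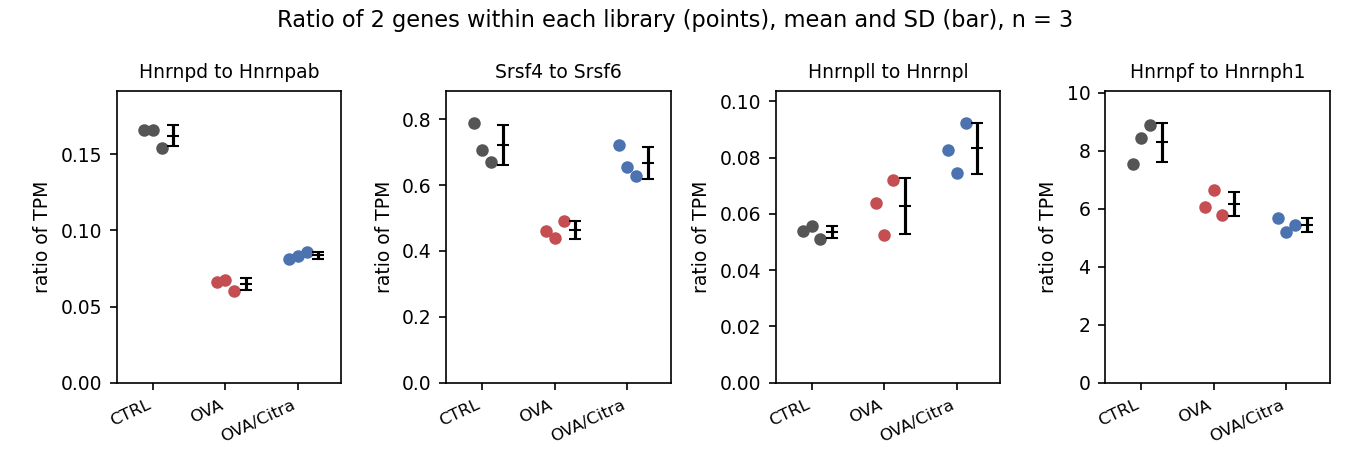
Ratio of the TPM of 2 relatives within each library (points), with the mean (horizontal bar) and SD (vertical bar, n = 3 in each). Srsf4 to Srsf6 is low in OVA alone, and Hnrnpll to Hnrnpl is highest in OVA/Citra.

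The proteins that act with the members were read from lists written from general knowledge, and each of those named here passed the test. The counts stand beside 39.8% lower and 32.1% higher of all tested genes in OVA against CTRL, with a median of -0.08, and 21.2% lower and 37.8% higher in OVA/Citra against OVA, with a median of 0.12. With median of ratios scaling those shares were 35.8% and 36.8%, and 30.0% and 29.1%. Of 14 tested genes for kinases, phosphatase subunits and nuclear import receptors, 8 fell (57.1%) and 3 rose (21.4%) in OVA against CTRL, or 7 and 4 with median ratios. Not all of these act on SR proteins alone. The SR kinases Clk3 (-0.76) and Clk1 (-0.82) and the phosphatase subunit Ppp1cc (-0.56) fell. In OVA/Citra against OVA 6 rose (42.9%) and 4 fell (28.6%), and with median ratios 4 were higher and 5 lower. The kinase Srpk2 rose by 0.62, and the import receptors Kpnb1 and Tnpo1 fell by 0.48 and 0.67, with the same calls under median of ratios scaling. Among 25 SR-related proteins, 11 fell (44%) and 3 rose (12%) in OVA against CTRL, or 7 and 5 with median ratios. In OVA/Citra against OVA 10 rose (40%) and 1 fell (4%), or 5 and 7 with median ratios. Luc7l2, a U1 snRNP partner, fell by 0.55 in OVA and rose by 0.46 in OVA/Citra over OVA. Rnps1 fell by 0.62 and Bclaf1 rose by 0.46 in OVA, and Scaf11 (0.34) and Acin1 (0.28) rose in OVA/Citra over OVA.

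A list of hnRNP relatives and other RNA-binding proteins under other symbols spanned -1.62 (Cirbp) to 0.69 (Ybx1) in OVA against CTRL. The 20 hnRNP members spanned -0.93 to 0.39, and each end of a range is set by 1 gene. Of 27, 14 fell (51.9%) and 8 rose (29.6%) in OVA against CTRL, beside 39.8% and 32.1% of all tested genes. With median ratios 12 were lower and 11 higher, and with granzyme genes left out 10 and 11. Of all tested genes, 35.8% were lower and 36.8% higher with median ratios, and 34.5% and 37.8% without granzymes. In OVA/Citra against OVA 11 rose (40.7%) and 4 fell (14.8%), beside 37.8% and 21.2%, or 7 and 9 with median ratios. Cirbp, a cold-inducible RNA-binding protein, fell by 1.62 from 50.8 to 15.9 TPM in OVA and rose by 1.25 to 39.1 TPM in OVA/Citra. Ybx1, which binds mRNA broadly, rose by 0.69 to 2024 TPM in OVA and fell by 0.55 in OVA/Citra over OVA. Pcbp4 fell by 1.05 in OVA, and Pcbp2, a C-tract binder, rose by 0.54 in OVA/Citra over OVA.

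Of 18 tested genes among other regulators of alternative splicing, 5 fell (27.8%) and 1 rose (5.56%) in OVA against CTRL, beside 39.8% and 32.1% of all tested genes. With median ratios 5 were lower and 4 higher, and with granzyme genes left out 4 and 6. The shares of all tested genes were 35.8% and 36.8% with median ratios, and 34.5% and 37.8% without granzymes. Against OVA, OVA/Citra had 9 higher (50%) and 2 lower (11.1%), beside 37.8% and 21.2%, or 3 and 2 with median ratios. Mbnl1 fell by 0.48 in OVA and rose by 0.40 in OVA/Citra over OVA. Nudt21 fell by 0.45 and Rbm4 rose by 0.69 in OVA, and Rbm4b (0.68) and Ddx5 (0.28) rose in OVA/Citra over OVA.

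Of 44 core spliceosome genes, 22 fell (50%) and 7 rose (15.9%) in OVA against CTRL, with a median of -0.13, beside 39.8%, 32.1% and -0.08 for all tested genes. With median ratios 18 were lower and 13 higher (median -0.04), and with granzyme genes left out 18 and 15 (median -0.02). Of all tested genes, 35.8% were lower and 36.8% higher with median ratios (median 0.00), and 34.5% and 37.8% without granzymes (median 0.02). Against OVA, 12 rose (27.3%) and 5 fell (11.4%) in OVA/Citra, beside 37.8% and 21.2%, or 6 and 12 with median ratios. Snrnp70, of the U1 snRNP, fell by 0.56 and Txnl4a rose by 0.53 in OVA. Dhx38 fell by 0.53 in OVA and rose by 0.42 in OVA/Citra over OVA, where U2af2 and Prpf31 fell by 0.26 and 0.34.

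Many SR and hnRNP genes are known to limit their own levels through exons that send the transcript to nonsense-mediated decay. In the GENCODE M21 annotation, 19 of the 31 members (61.3%) have a transcript of that type, against 29.3% of 10907 tested coding genes. A retained-intron transcript is listed for 22 members (71%), against 59.5%. A gene counts when any of its transcripts has the type, so genes with more annotated transcripts have more chances. The members here include Srsf12, which was not tested. The table gives 1 value a gene, so which transcripts made it up was not read here. Of 15 decay factors, 5 rose and 5 fell in OVA against CTRL (33.3% each way, near the 32.1% and 39.8% of all tested genes), with Magohb (1.14), Smg5 (0.85) and Upf1 (0.48) among those that rose. In OVA/Citra against OVA 2 rose (13.3%) and 4 fell (26.7%), beside 37.8% and 21.2% of all, or 1 and 8 with median ratios: Upf1 and Magohb fell by 0.63 and 0.58, and Smg6 rose by 0.94.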

How the data were processed

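RNA from 9 libraries of mouse CD8+ T cells (3 groups of 3, as the labels give them) was sequenced on an Illumina NextSeq instrument, per the labels. Trim Galore 0.5.0, Salmon and GRCm39 are named in the submitters' processing notes. No source used here names the annotation. The authors deposited 1 table whose name says FPKM, but every column sums to 1000000, so its values were taken as TPM; it names genes by symbol only, and how reads of near-identical genes, such as Hnrnpa1 and its pseudogene copies, were divided is not known.

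Reads worked back from the steps between values were whole for 16734 of 16734 genes above 0 in 2 or more libraries (100%, tolerance 0.0001 reads or 3e-08 of the count). Their sum gave the depth, which leaves out genes above 0 in 1 library only. Arms of 3 libraries limit the precision. The 11971 genes whose mean reached 1 TPM in some group were fitted as log2(TPM + 1) over all 9 libraries with limma 3.58.1 (R 4.3.3, eBayes with trend) and Benjamini-Hochberg adjustment, and called at an adjusted p under 0.05, two-sided. Changes understate those of low genes through the pseudocount of 1. There were 19 other settings: other pseudocounts (0.1 and 5), filters (none and 5 TPM), scalings (median of ratios, quantile, granzymes left out), fits (2 groups, no trend, replicate block) and each library left out. Limma with voom on the recovered reads was added after the data were seen. Scripts were tested on simulated data.

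Members, gene lists and pairs were chosen with earlier results of these data known. By rule, values in each library are given for the 5 largest increases and decreases among called members in each comparison, the most abundant members, and Hnrnpl, Hnrnpll and Ptprc. From each other list, up to 3 genes with the smallest adjusted p in OVA against CTRL and in OVA/Citra against OVA are named. Promoter windows are RefSeq's.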

Additional observations from a re-analysis of the deposited data

How the results depend on the processing

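Of the calls under the main settings, 18 of 22 in OVA against CTRL, 7 of 16 in OVA/Citra against OVA and 12 of 17 in OVA/Citra against CTRL were kept under all 20 alternatives. In OVA/Citra against OVA, members called higher came to 7 with median of ratios scaling, and members called lower to 7 with that scaling, 3 with quantile normalization, 3 with granzyme genes left out and 1 with voom on recovered reads, which was chosen after seeing the data. The lower quantile calls were Srsf1, Srsf10 and Hnrnpab, and those without granzymes Srsf1, Srsf2 and Hnrnpab. Of all tested genes, 30.0% were called lower with median of ratios scaling, 29.6% with quantile normalization, 25.4% without granzymes and 22.8% with voom. The share of the 30 tested members called lower was smaller in each of these settings. With median of ratios scaling, 29.1% of all tested genes were called higher. The cause of the differences between settings was not tested. Among members called under the main settings or another scaling, direction reversed in OVA/Citra against OVA for Hnrnpk (-0.01 with median of ratios), Hnrnpm (-0.12 with median of ratios, -0.06 without granzymes, -0.01 with voom, -0.00 without OVA replicate 2) and Srsf7 (0.04 without OVA/Citra replicate 2). Of members called under none, Hnrnpc, Hnrnpf, Srsf11, Srsf6 and Hnrnpu also turned with median of ratios, to -0.10, -0.10, -0.09, -0.05 and -0.07. With 1 library left out, the values of Hnrnpm lay between -0.00 and 0.04 and those of Srsf7 between -0.07 and 0.04.

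Leaving out 1 library gave 2 to 3 higher and 17 to 19 lower members in OVA against CTRL, 11 to 17 and 0 to 1 in OVA/Citra against OVA, and 3 to 6 and 10 to 11 in OVA/Citra against CTRL. The 1 lower member was Srsf1, without OVA replicate 1.

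With the replicate number as a block, the counts higher and lower were 3 and 18, 14 and 0, and 6 and 12. Deviations of same-numbered libraries correlated between -0.01 and 0.30, and those of differently numbered libraries between -0.25 and 0.17. These ranges overlap and the labels state no pairing, so the numbers were not taken as pairing in the main fit.

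Depth was least for Srsf12, with 1 to 13 reads a library, and among the tested members for Hnrnph3, with 462 to 735.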
